A study of Mus musculus with 20 samples.

Results

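The comparison described here is that of the cultured common dendritic cell progenitor (CDP) with the cultured multipotent progenitor (MPP) of the mouse. It uses 4 of the 20 arrays of the series, MPP_1, MPP_2, CDP_1 and CDP_2, chosen by their titles, with 2 arrays per group. Both progenitors were amplified in culture from bone marrow of C57BL/6 mice, and no transgene, deletion or treatment is given for either. Conventional dendritic cells (cDC) and plasmacytoid dendritic cells (pDC), with 2 arrays each, entered the same statistical fit because their RNA was labelled in the same way, 1 µg with a one-cycle kit. CDP taken straight from bone marrow (in vivo CDP, 2 arrays, 50 ng of RNA labelled with another kit) and a further pair of untreated cultured CDP (the 0 h arrays of a TGF-β1 time course, 250 ng of RNA) are used for description only. The sources used here do not say whether the arrays of a group came from separate cultures or pools of mice, or which cytokines the cultures received, so the spread behind each p-value may be technical.

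An MPP can still form every myeloid and lymphoid lineage, whereas a CDP is restricted to dendritic cells. This restriction goes along with the closing of the neutrophil, mast cell and erythroid programmes and with signalling through FLT3, the receptor for the growth factor that dendritic cells depend on. In the marrow, IRF8, ID2 and the E protein TCF4 steer the choice of dendritic cell subset, while C/EBPα, GFI1 and GATA2 support the granulocyte, mast cell and stem cell side. Granule proteins of neutrophils are made in a sequence, first the proteases and peroxidase of the azurophil granules, later the antimicrobial proteins of the specific and gelatinase granules.

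Levels are log2 probe set intensities, with 1 probe set for each of 18193 genes, and a value of 5 was taken as the lower limit of usable signal. Of these genes, 8900 had a value above 5 on at least 2 of the 8 arrays of the fit and were tested with limma (Benjamini-Hochberg adjusted p under 0.05, two-sided). Between CDP and MPP, 668 genes (7.51%) passed, 355 of them higher in CDP (3.99%) and 313 lower (3.52%). A difference of at least 4-fold was reached by 142 of the higher and 144 of the lower genes, and one of at least 16-fold by 18 and 39. These counts use the full log2 difference, including values under 5. Both MPP arrays were under 5 for 112 of the higher genes, and both CDP arrays for 90 of the lower. Losses were thus more frequent among the full differences of at least 16-fold, as a description. How the counts stand against the limit of 5 was not tested. Among 1626 tested probe sets without a gene name, 56 (3.44%) passed in a fit of all probe sets, 29 higher and 27 lower. The arrays of the groups did not overlap for 4284 genes (48.1%), which is the background for every statement of that kind. Leaving out 1 array at a time kept 228 of the calls in all 4 fits, 119 higher and 109 lower, while the other 440 ended in at least 1 of them, and the total fell to 279 without MPP_1, 320 without MPP_2, 450 without CDP_1 and 491 without CDP_2. Below, genes of the latter kind are named with the arrays whose removal ended the call and the highest adjusted p that resulted. Of the 187 tested genes named here, 130 had passed. When only the 4 arrays of MPP and CDP were fitted, 54 of these 130 lost the call, and 10 lost it with values under 5 raised to 5. A loss in the fit of the 4 arrays is given with the gene where no left-out array ended its call, and a loss with raised values in every case. A gene could enter the test through the group in which it was high, so the counts and medians of a list with untested members describe its tested members and support nothing further. Between 34.0% and 34.8% of probe sets lay above 5 on the 4 arrays. The typical difference between both arrays of a group, scaled to 1 array, was an SD of 0.32 in MPP and 0.41 in CDP. CDP_1 stood apart from CDP_2 in 2 respects. It was higher by more than 1 for 422 tested genes against 126 the other way, and the difference between the 3′ and 5′ probe sets of beta-actin, a measure of RNA integrity, was 1.23 in CDP_1 against 2.11 in CDP_2, 1.91 in MPP_1 and 2.04 in MPP_2. The part of this difference in the results was not tested.

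**Figure D1:**
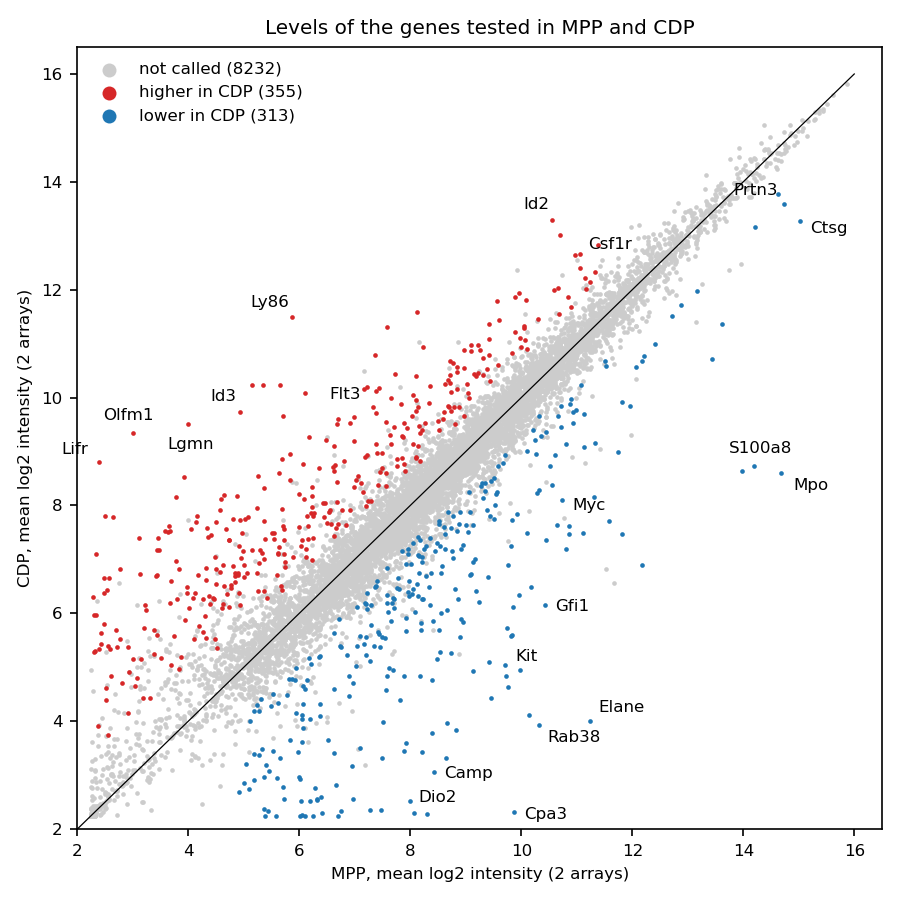
Mean log2 intensity of the 8900 tested genes in MPP (x axis) and CDP (y axis), 2 arrays each; each point is a gene, red points are the 355 genes called higher in CDP, blue points the 313 called lower, grey points the rest, and the line marks equal levels. On the full scale, values under 5 included, 39 blue points lay at least 16-fold below the line and 18 red points at least 16-fold above it. Csf1r, labelled for reference, is among the grey points.

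The marker genes of both labels were read first. Of 7 genes taken to mark the MPP, 4 were lower in CDP, namely Cd34, Kit, Myb and Gata2, while Meis1 (-0.73, SE 0.26, adjusted p = 0.171), Hoxa9 (-0.39) and Sox4 (0.22) did not pass. Of 7 genes taken to mark the CDP, Flt3, Irf8, Id2, Tcf4 and Cx3cr1 were higher in CDP. Csf1r, the receptor for M-CSF, stood at 11.25 and 10.78 in MPP_1 and MPP_2 and at 12.70 and 12.41 in CDP_1 and CDP_2, without overlap, and did not pass (difference 1.55, SE 0.83, adjusted p = 0.383). Zeb2 differed by 0.12 (adjusted p = 0.917). No marker that passed went against its label.

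The azurophil granule genes that fell did so by very different amounts. Of 15 measured and tested members, 9 were lower in CDP and 1, Ctsc, was higher, with a median difference of -1.13 against 0.00 over all genes tested. Mpo, the peroxidase of these granules, stood at 14.66 and 14.69 in MPP_1 and MPP_2 and at 8.60 and 8.60 in CDP_1 and CDP_2 (67.3-fold lower, log2 SE 0.16, adjusted p = 1.42e-05). Elane, neutrophil elastase, was at 11.41 and 11.08 in the MPP arrays and below 5 on both CDP arrays (4.69 and 3.34; at least 75.9-fold lower, adjusted p = 0.000153). Prtn3, the related protease proteinase 3, was at 14.71 and 14.75 in MPP and still at 13.77 and 13.42 in CDP, a fall by 1.13 (SE 0.20, adjusted p = 0.0161). Ctsg, cathepsin G, behaved likewise, from 15.01 and 15.02 to 13.64 and 12.92, a fall by 1.74 (SE 0.27, adjusted p = 0.0110). Prtn3 and Ctsg thus stayed far above 5 on both CDP arrays, on which Elane was below 5. On the MPP arrays Prtn3 and Ctsg stood between the percentiles of 99.8 and 99.9 of all genes, near the top of the scale, and whether the scale compresses a fall from there was not tested. Levels of different probe sets do not rank transcripts by abundance.

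Among the other azurophil members, Fcnb, a lectin that recognises microbial sugars, fell from 7.84 and 6.71 to 2.31 and 2.40 (at least 4.84-fold lower, adjusted p = 0.000365). Nkg7, a granule membrane protein, fell from 8.53 and 8.27 to 4.10 and 3.45 (at least 10.5-fold, adjusted p = 0.000109). Ms4a3, a marker of granulocyte and monocyte precursors, was lower by 6.63-fold, at 13.33 and 13.56 in MPP and 10.22 and 11.22 in CDP (adjusted p = 0.00291; 0.0597 in the fit of the 4 arrays). The glutathione transferase Gstm1 fell by 2.87 (adjusted p = 0.00731), and Srgn, the proteoglycan that packs proteases into granules, by 0.84 (adjusted p = 0.0299). Ms4a3 and Gstm1 are counted in this list, though their products are not granule proteins. Ctsc, the peptidase that activates the granule serine proteases, went the other way, from 11.28 and 11.50 to 12.91 and 12.75 (2.72-fold higher, adjusted p = 0.00628). The 5 members that did not pass included lysozyme Lyz2, whose CDP arrays were far apart (12.14 and 10.87 in MPP, 13.13 and 10.48 in CDP, adjusted p = 0.963), and the protease inhibitor Serpinb1a (-0.72, adjusted p = 0.108). Summed over the 15 members on the linear scale, intensity was 161153 and 151674 in MPP and 94598 and 57615 in CDP. Ctsc lost the call without MPP_1 (adjusted p up to 0.0595), Ctsg and Gstm1 without MPP_1 or MPP_2 (0.0855 and 0.0735), Prtn3 without MPP_1, MPP_2 or CDP_2 (0.100) and Srgn whichever array was left out (0.148).

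The promoters of Elane, Prtn3, Mpo and Ctsg are shown because the falls of these 4 genes differed so widely in size. Prtn3 and Elane are neighbours among the protein-coding genes of chromosome 10 and read in the same direction. The windows, from RefSeq on build GRCm38.p6, run from 250 bases before the annotated start to 50 after it, 5′ to 3′ on the strand of the gene. They lie at chr10:79886062-79886361 on the plus strand for Elane, chr10:79879417-79879716 on the plus strand for Prtn3, chr11:87793534-87793833 on the plus strand for Mpo and chr14:56102525-56102824 on the minus strand for Ctsg. Capitals mark every match on either strand to letters known from binding sites of myeloid factors: TAACNG and CAACNG (MYB), GAGGAA (PU.1), TGTGGT (RUNX) and TTNCNNAA (C/EBP).
Elane: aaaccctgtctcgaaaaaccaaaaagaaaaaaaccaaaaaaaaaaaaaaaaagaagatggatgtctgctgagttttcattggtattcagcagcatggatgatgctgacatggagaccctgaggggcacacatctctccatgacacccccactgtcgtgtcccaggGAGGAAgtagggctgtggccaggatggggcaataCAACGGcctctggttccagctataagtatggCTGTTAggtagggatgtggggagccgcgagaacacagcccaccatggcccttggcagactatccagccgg
Prtn3: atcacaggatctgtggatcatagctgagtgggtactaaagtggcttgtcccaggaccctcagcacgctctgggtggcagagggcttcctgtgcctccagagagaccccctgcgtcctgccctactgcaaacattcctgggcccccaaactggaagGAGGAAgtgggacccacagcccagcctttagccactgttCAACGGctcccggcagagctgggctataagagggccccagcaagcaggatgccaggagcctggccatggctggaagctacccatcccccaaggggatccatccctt
Mpo: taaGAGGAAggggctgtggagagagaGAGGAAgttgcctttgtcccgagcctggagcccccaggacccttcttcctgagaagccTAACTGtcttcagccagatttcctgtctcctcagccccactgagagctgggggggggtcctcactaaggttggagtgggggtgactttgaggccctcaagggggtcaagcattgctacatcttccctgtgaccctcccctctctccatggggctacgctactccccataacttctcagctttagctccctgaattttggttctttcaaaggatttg
Ctsg: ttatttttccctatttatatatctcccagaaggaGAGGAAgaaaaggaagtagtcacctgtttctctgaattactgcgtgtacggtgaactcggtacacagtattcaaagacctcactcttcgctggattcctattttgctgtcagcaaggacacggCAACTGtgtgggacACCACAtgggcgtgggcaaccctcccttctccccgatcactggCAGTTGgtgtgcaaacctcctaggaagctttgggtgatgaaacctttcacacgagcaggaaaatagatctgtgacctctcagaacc
GAGGAA was found in all 4 windows, and in 28.3% of 27025 promoter windows of the same length. Elane and Prtn3 both hold CAACGG, 51 and 56 bases before the start (first base), and CAACNG occurs in 35.1% of windows. Elane and Mpo hold 1 match to TAACNG each, found in 23.2% of windows, and Prtn3 and Ctsg hold none. The RUNX letters were found once, in Ctsg, and in 16.9% of windows. No match to the C/EBP letters, present in 40.7% of windows, was found in these 4, and no matches overlapped. These matches describe letters only, and no binding was measured.

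Late granule genes were lower in CDP in 7 of 10 tested members and higher in 1, Mmp8. Of the 17 measured, 12 and 9 were above 5 on MPP_1 and MPP_2, 7 and 5 on CDP_1 and CDP_2, and 1 on each array of cDC and pDC, so members entered the test mainly through MPP and the count is a description. S100a8 and S100a9, which together form calprotectin, stood at 14.43 and 13.96 and at 14.49 and 13.46 in MPP_1 and MPP_2. In CDP_1 and CDP_2 they stood at 10.04 and 7.42 and at 10.20 and 7.09 (44.2-fold and 40.4-fold lower, adjusted p = 0.00615 and 0.0148). Ngp, a neutrophil granule protein, went from 12.60 and 11.76 to 8.06 and 5.72 (39.1-fold, adjusted p = 0.00497). The cathelicidin gene Camp fell from 9.12 and 7.72 to 3.25 and 2.88 (at least 10.7-fold, adjusted p = 0.000567). Lactoferrin (Ltf) fell from 8.64 and 7.18 to 4.28 and 2.90 (at least 7.54-fold, adjusted p = 0.00493; 0.0811 in the fit of the 4 arrays). In each of these genes MPP_1 was above MPP_2 and CDP_1 above CDP_2, so the arrays of a group differed among themselves in the amount of late granule RNA. The iron-binding lipocalin Lcn2 fell by 4.20 (adjusted p = 0.0250) and Padi4, which citrullinates histones, by 3.53 (adjusted p = 0.0125). Chil3, a chitinase-like protein, was at 12.61 and 10.74 in MPP and at 9.36 and 3.76 in CDP and did not pass (adjusted p = 0.127; 0.00384 without CDP_1). Mmp8, neutrophil collagenase, was higher, at 5.42 and 4.35 in MPP and 8.71 and 7.65 in CDP (9.83-fold, adjusted p = 0.00524; 0.0811 in the fit of the 4 arrays). Of 14 tested S100 proteins and annexins, 3 were lower and 0 higher, S100a8, S100a9 and S100a1 (fall by 1.95, adjusted p = 0.0219). Summed linear intensity of the 17 genes of the late granule list was 69514 and 41939 in MPP against 7300 and 2714 in CDP. S100a8, S100a9 and Padi4 are counted in this list, though their products are not granule proteins. The count and the sum are thus not of granule proteins alone. In bulk RNA of this kind, fewer cells of a type and less RNA per cell cannot be told apart. S100a8 and Ngp lost the call without MPP_1 (adjusted p up to 0.0653 and 0.0561), Padi4 without MPP_1 or CDP_2 (0.0985), S100a9 and Lcn2 without MPP_1 or MPP_2 (0.122 and 0.171) and S100a1 without MPP_1, MPP_2 or CDP_2 (0.155).

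**Figure D2:**
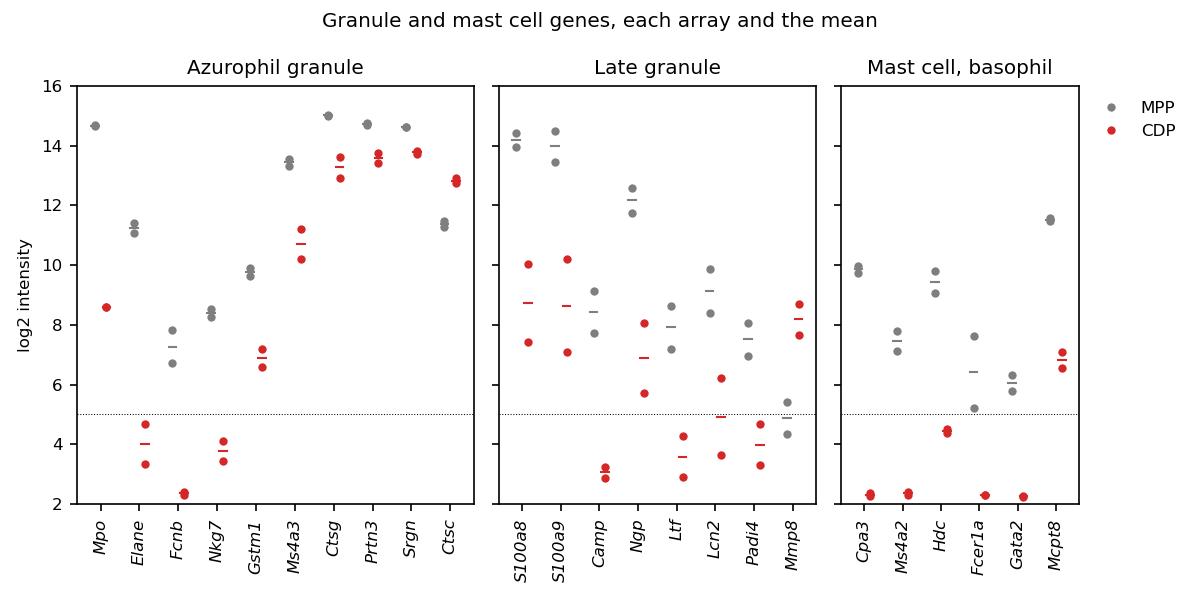
Log2 intensity (y axis) of genes from the azurophil granule, late granule and mast cell or basophil lists on each MPP array (grey) and each CDP array (red). Points are single arrays, short bars the group means, and the dotted line is the level of 5. Mpo, Elane and Fcnb are far lower in CDP while Ctsg, Prtn3 and Srgn stay above 12, and Ctsc and Mmp8 lie higher in CDP than in MPP.

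Of 14 mast cell and basophil genes measured, 6 were above 5 on each MPP array, 1 on each CDP array, 1 and 3 on the cDC arrays and 0 on the pDC arrays. The 6 tested genes thus entered the test through MPP, and that 5 of them were lower in CDP is a description. Cpa3, carboxypeptidase A of mast cell granules, was at 9.98 and 9.74 in MPP and at 2.36 and 2.25 in CDP, the floor of the scale (at least 29.1-fold lower, adjusted p = 0.00223). Hdc, the enzyme that makes histamine, fell from 9.08 and 9.81 to 4.50 and 4.37 (at least 21.8-fold, adjusted p = 0.000805). Ms4a2, the β chain of the high-affinity IgE receptor, fell from 7.81 and 7.12 to 2.31 and 2.40 (at least 5.52-fold, adjusted p = 0.000913). Fcer1a, its α chain, was at 7.62 and 5.20 in MPP and 2.29 and 2.30 in CDP (at least 2.66-fold lower, adjusted p = 0.0138), a call that ended with values under 5 raised to 5 (-1.41, adjusted p = 0.313). The factor Gata2 fell from 6.31 and 5.78 to 2.28 and 2.25 (at least 2.06-fold, adjusted p = 0.000126). The basophil protease Mcpt8 was at 11.57 and 11.48 in MPP and at 7.10 and 6.56 in CDP and missed the threshold (-4.70, adjusted p = 0.0535), but passed with values under 5 raised to 5 (0.00125), in the fit of the 4 arrays (0.0151) and with the in vivo arrays added (0.0237). The summed linear intensity of the 14 genes was 5141 and 4884 in MPP and 218 and 173 in CDP. Without CDP_1 or CDP_2, the adjusted p of Fcer1a was 0.0740 or 0.0678.

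Genes of other blood lineages were mostly not tested because their values were low. Of the erythroid list 2 of 12 measured genes were tested, and carbonic anhydrase 2 (Car2) was lower in CDP, at 9.33 and 7.97 in MPP and 3.40 and 3.24 in CDP (at least 12.5-fold, adjusted p = 0.00212), while Tfrc differed by -0.23. Of 10 megakaryocyte genes 3 were tested and 0 passed limma's threshold, adjusted or not, and the platelet chemokine Pf4 differed by -1.17 (adjusted p = 0.714). The eosinophil lectin Siglecf fell from 7.94 and 8.21 to 6.24 and 5.80 (4.17-fold, adjusted p = 0.00552; 0.0535 without MPP_2). Of 13 T and NK cell genes 1 was tested and did not pass. Of 12 B cell genes 4 were tested and 2 were higher in CDP. Ighm, the µ heavy chain, which progenitors can transcribe before rearrangement is complete, rose from 10.18 and 9.98 to 11.86 and 11.75 (3.31-fold, adjusted p = 0.00141). The inhibitory lectin Cd22 rose from 3.57 and 3.20 to 6.28 and 5.10 (at least 1.61-fold, adjusted p = 0.0161; up to 0.119 without MPP_1 or MPP_2, and 0.406 with values under 5 raised to 5). Cd22 reached 9.93 and 9.79 in cDC and 9.45 and 10.05 in pDC.

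Among the tested surface proteins of stem and progenitor cells more fell than rose. Of 19 members measured, 14 were tested, 9 were lower in CDP and 1, Egfl7, was higher (median -1.71). Of the 19, 14 were above 5 on each MPP array and 11 and 12 on CDP_1 and CDP_2. In cDC 8 and 7 were above 5, and in pDC 7 and 5. Members could thus enter the test through MPP, and the count is a description. Kit, the receptor for stem cell factor, fell from 9.73 and 9.68 to 4.75 and 5.32 (25.5-fold lower, SE 0.27, adjusted p = 0.000158). Prom1, the membrane protein CD133, fell from 8.94 and 7.18 to 2.32 and 2.28 (at least 8.36-fold, adjusted p = 0.000865), and the adhesion receptor Adgrg1 from 8.61 and 7.75 to 4.85 and 4.84 (at least 9.09-fold, adjusted p = 0.000812). Cd34 itself was lower but far from lost, at 11.49 and 11.17 in MPP and 9.17 and 9.16 in CDP (4.50-fold, adjusted p = 0.0147). The mucin Muc13 fell by 3.09 (adjusted p = 0.00662), the TNF receptor family member Cd27 by 1.25 (adjusted p = 0.0200) and endoglin (Eng) by 1.01 (adjusted p = 0.0102). The cysteine protease inhibitor homologues Ctla2a and Ctla2b fell by 4.24 and 3.01 (adjusted p = 0.000273 and 0.00483); they are close copies, so their probe sets may share signal. Egfl7, a secreted protein encoded in the host gene of miR-126, rose from 5.97 and 6.44 to 7.76 and 7.97 (3.17-fold, adjusted p = 0.0120). The members that did not pass, Cd48, Cd93, Cd9 and Emb, lay between 0.16 and 0.54. Ctla2b lost the call without MPP_1 (adjusted p up to 0.0521), Egfl7 without MPP_1 or CDP_2 (0.0938), Muc13 without MPP_1 or MPP_2 (0.0684), Eng without MPP_1, MPP_2 or CDP_1 (0.0712), Cd27 without MPP_1, MPP_2 or CDP_2 (0.135) and Cd34 whichever array was left out (0.118).

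Stem and progenitor transcription factors fell in part. Of 23 measured, 17 were tested, 6 were lower and 0 higher (9 and 2 at an unadjusted p under 0.05; median -0.73). Ikzf2, the Ikaros family member Helios, went from 9.89 and 8.93 to 5.17 and 5.03 (19.8-fold lower, adjusted p = 0.000863). Myc fell from 11.13 and 10.33 to 8.39 and 7.83 (6.17-fold, adjusted p = 0.00365; 0.0597 in the fit of the 4 arrays), Tal1 from 8.45 and 8.25 to 6.02 and 6.29 (4.59-fold, adjusted p = 0.000910) and the ETS factor Erg from 8.69 and 8.41 to 6.44 and 7.06 (3.48-fold, adjusted p = 0.00531). Myb stayed well above the limit of 5, at 13.24 and 13.10 in MPP and 11.89 and 12.06 in CDP, a fall by 1.20 (SE 0.18, adjusted p = 0.00855). Gata2, described above with the mast cell genes, is the sixth. The remaining members did not pass: Runx1 differed by 0.67, Lmo2 by -0.82, Lyl1 by -0.80, Hoxa7 by 0.39 and Bmi1 by 0.44. Myb and Erg lost the call without MPP_1 (adjusted p up to 0.0724 and 0.0540).

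Regulators of granulocytes and monocytes went in both directions. Of 16 tested myeloid transcription factors, 2 were lower and 2 higher in CDP. Gfi1, the repressor required for neutrophil development, fell from 10.45 and 10.40 to 5.94 and 6.38 (19.2-fold lower, SE 0.23, adjusted p = 0.000140). Cebpa, the factor that opens the granulocyte programme, fell from 9.13 and 8.78 to 6.09 and 5.59 (8.68-fold, adjusted p = 0.00954). Klf4, which promotes monocytes, rose from 7.55 and 7.33 to 10.53 and 9.84 (6.69-fold, adjusted p = 0.0357). Irf5, which drives inflammatory cytokines downstream of Toll-like receptors, rose from 6.65 and 6.60 to 8.74 and 8.55 (4.05-fold, adjusted p = 0.000915). Spi1, encoding PU.1, stood at 8.26 and 8.07 in MPP and 8.42 and 8.06 in CDP (difference 0.07, SE 0.31, adjusted p = 0.955), with overlapping arrays and a sign that turned without MPP_2 (-0.02) or CDP_1 (-0.10). Cebpb (0.40) and Cebpd (-0.94; adjusted p = 0.0341 without CDP_1) did not pass. Cebpa lost the call without MPP_1, MPP_2 or CDP_2 (adjusted p up to 0.0887) and Klf4 whichever array was left out (0.193).

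Dendritic cell transcription factors were higher in CDP where they passed. Of 24 tested, 6 were higher and 0 lower (10 and 0 at an unadjusted p under 0.05; median 0.61, or 0.29 with values under 5 raised to 5). Id3, an inhibitor of E proteins, rose from 4.89 and 4.96 to 10.47 and 9.005 (at least 26.7-fold higher, adjusted p = 0.00151), and its relative Id2, needed for the cDC subset that cross-presents antigen, from 10.90 and 10.23 to 13.64 and 12.95 (6.65-fold, adjusted p = 0.00713). Tcf4, the E protein that specifies pDC, rose at the same time, from 10.73 and 10.46 to 11.97 and 12.01 (2.63-fold, adjusted p = 0.00531), as did its partner in pDC development Bcl11a, from 8.83 and 8.52 to 10.34 and 10.33 (3.17-fold, adjusted p = 0.00192). Genes of both the cDC and the pDC side were thus raised in the same samples. Nfil3, which acts upstream of Id2 in innate lymphoid and dendritic lineages, rose from 5.38 and 5.87 to 7.001 and 7.22 (2.81-fold, adjusted p = 0.0138). Irf8, the factor that directs progenitors to dendritic cells and monocytes, rose only from 9.92 and 10.16 to 11.11 and 11.47 (2.37-fold, SE 0.27, adjusted p = 0.0377); the cDC arrays stood at 12.99 and 13.70, the pDC arrays at 14.88 and 15.03 and the in vivo CDP arrays at 14.50 and 14.45. Factors of later stages did not pass, among them Batf3 (0.62), Irf4 (0.87), Zbtb46 (0.40), Relb (1.46, adjusted p = 0.289) and Spib (0.96, or -0.03 without CDP_1 and adjusted p = 0.0198 without CDP_2). Id2 lost the call without MPP_2 (adjusted p up to 0.0623), Nfil3 without MPP_1 or CDP_2 (0.0984) and Irf8 whichever array was left out (0.206).

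**Figure D3:**
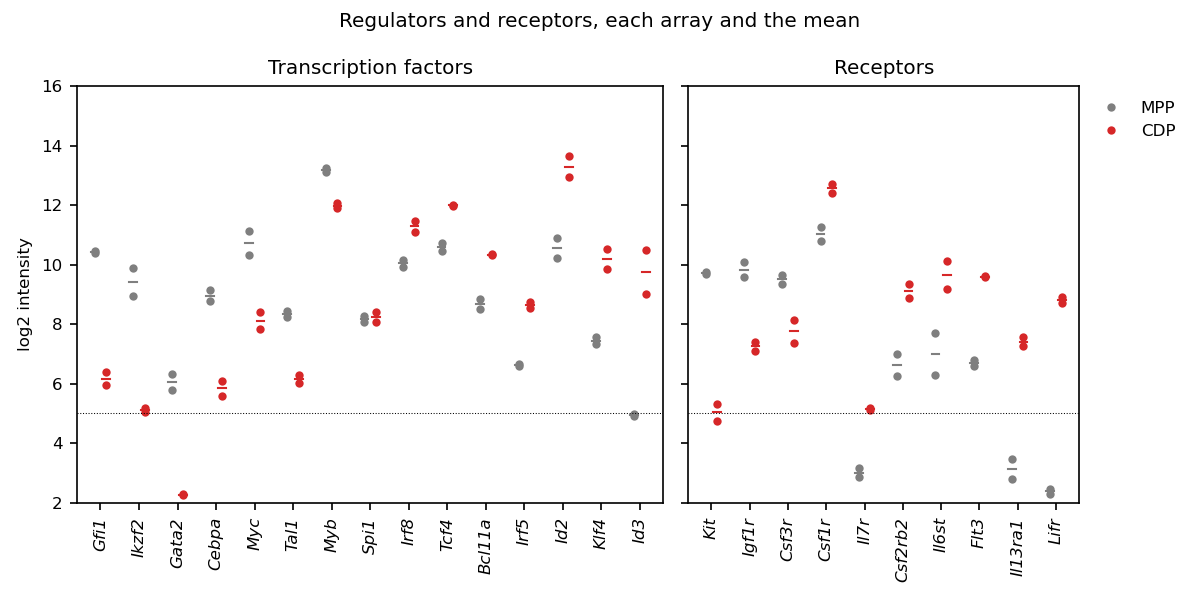
Log2 intensity (y axis) of transcription factors (left) and receptors (right) on each MPP array (grey) and each CDP array (red), with group means as short bars and the level of 5 dotted. Gfi1, Ikzf2, Gata2, Cebpa, Myc and Tal1 lie lower in CDP; Id2, Id3, Klf4, Irf5, Bcl11a, Tcf4 and Irf8 lie higher; the arrays of Spi1 overlap, and Csf1r, though apart, did not pass the test.

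Receptors for growth factors changed in both directions. Of 11 tested, 4 were lower and 2 higher in CDP. Kit fell, as given above, and Flt3 rose from 6.59 and 6.79 to 9.59 and 9.60 (7.49-fold higher, SE 0.26, adjusted p = 0.00105). Csf2rb2, the β chain used by the mouse IL-3 receptor, rose from 7.001 and 6.24 to 8.86 and 9.35 (5.61-fold, adjusted p = 0.00386; 0.0587 in the fit of the 4 arrays), while the β chain shared with GM-CSF and IL-5, Csf2rb, differed by 0.40; both genes are close copies and their probe sets may share signal. Csf3r, the G-CSF receptor of neutrophils, fell from 9.66 and 9.35 to 8.15 and 7.36 (3.37-fold lower, adjusted p = 0.0156). Igf1r, the receptor for insulin-like growth factor, fell by 2.57 (adjusted p = 0.0392) and the PDGF receptor gene Pdgfrb by 2.44 (adjusted p = 0.0113). The GM-CSF receptor α chain Csf2ra differed by -0.63 and did not pass (adjusted p = 0.0440 without CDP_1). Pdgfrb lost the call without MPP_1 or MPP_2 (adjusted p up to 0.0984), Csf3r without MPP_1, MPP_2 or CDP_2 (0.122) and Igf1r whichever array was left out (0.222).

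Interleukin, interferon and LIF receptors moved in one direction among those that passed. Of 24 measured, 19 were tested, 7 were higher in CDP and 0 lower (10 and 0 at an unadjusted p under 0.05; median 0.67). Lifr rose from the floor, 2.30 and 2.47, to 8.92 and 8.69 (at least 14.0-fold higher, SE 0.21, adjusted p = 2.49e-05), and its signalling partner gp130 (Il6st), which also serves IL-6, from 6.29 and 7.69 to 9.18 and 10.11 (6.28-fold, adjusted p = 0.0357). Both chains of the type II IL-4 receptor, which also binds IL-13, were higher. Il13ra1 rose from 2.78 and 3.46 to 7.56 and 7.25 (at least 5.29-fold, adjusted p = 0.000701) and Il4ra from 5.92 and 6.25 to 7.99 and 8.26 (4.13-fold, adjusted p = 0.00617). Il7r (3.15 and 2.86 to 5.17 and 5.12, adjusted p = 0.000577) and Il10ra (3.15 and 3.15 to 5.34 and 4.97, adjusted p = 0.00204) reached the level of 5 in CDP and far higher levels in dendritic cells, with Il7r at 13.09 and 13.05 in pDC. With values under 5 raised to 5 neither passed, so that 5 of the 7 calls were left (Il7r 0.14, adjusted p = 0.658; Il10ra 0.17, adjusted p = 0.740). Ifnar2, a chain of the type I interferon receptor, rose by 1.13 (adjusted p = 0.0348). Socs3, which dampens signals from gp130, was the 1 of 12 tested feedback genes to pass, at 8.74 and 8.68 in MPP and 10.13 and 10.73 in CDP (3.28-fold higher, adjusted p = 0.0174). Dusp6, which dampens ERK signalling, was at 9.41 and 8.34 in MPP and 6.81 and 3.68 in CDP and did not pass (-3.63, adjusted p = 0.0737; 0.00824 without CDP_1). Il4ra lost the call without MPP_1 (adjusted p up to 0.0618), Il6st without MPP_1, CDP_1 or CDP_2 (0.185), Ifnar2 without MPP_1, MPP_2 or CDP_1 (0.193) and Socs3 without MPP_1, MPP_2 or CDP_2 (0.114).

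A minority of the markers of mature dendritic cells was higher in CDP, 18.75% of the tested cDC markers and 25% of the tested pDC markers. Over all genes tested, 3.99% were called higher. Of 16 tested cDC markers 3 were higher, Flt3, Dpp4 and Itgax, and 0 lower (5 and 0 at an unadjusted p under 0.05; median 0.26, or 0.06 with values under 5 raised to 5). The peptidase Dpp4 (CD26) rose from 5.61 and 5.77 to 9.10 and 8.62 (9.01-fold higher, adjusted p = 0.000927). The integrin CD11c (Itgax) was at 2.45 and 2.32 in MPP and at 6.35 and 4.32 in CDP, so that only CDP_1 exceeded 5 (at least 1.26-fold, adjusted p = 0.0246; 0.431 with values under 5 raised to 5). Of 16 tested pDC markers 4 were higher and 0 lower, Tcf4, Bcl11a, Cox6a2 and Dntt (6 and 0 at an unadjusted p under 0.05; median 0.65, or 0.00 with values under 5 raised to 5). Cox6a2, a subunit of cytochrome oxidase, rose from 8.998 and 7.24 to 12.24 and 10.95 (11.1-fold, adjusted p = 0.0180), and Dntt, terminal transferase, stood at 2.89 and 2.32 in MPP and 4.94 and 4.72 in CDP, below 5 on all 4 arrays (adjusted p = 0.0291; difference 0.00 with values under 5 raised to 5). With values under 5 raised to 5, 2 of the 3 cDC marker calls and 3 of the 4 pDC marker calls were left. Siglech (0.97; adjusted p = 0.0437 without CDP_2), Xcr1 (0.00) and Itgae (0.04), which mark mature subsets, did not pass. Itgax lost the call without MPP_1 or MPP_2 (adjusted p up to 0.148), Cox6a2 without MPP_2 or CDP_1 (0.0949) and Dntt whichever array was left out (0.187).

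Monocyte and macrophage genes had a median difference of 1.74 over 17 tested members, of 23 measured, with 4 higher and 0 lower (8 and 0 at an unadjusted p under 0.05). Cx3cr1, the fractalkine receptor, rose from 5.90 and 5.38 to 8.89 and 8.31 (7.81-fold higher, adjusted p = 0.00300). Mpeg1, encoding perforin-2, rose from 9.85 and 10.07 to 12.10 and 11.77 (3.93-fold, adjusted p = 0.00160), Cd68 from 7.31 and 7.46 to 9.62 and 8.64 (3.35-fold, adjusted p = 0.0177) and Ms4a6c from 8.78 and 9.14 to 11.11 and 10.65 (3.79-fold, adjusted p = 0.0239). Several others had a wide gap between both CDP arrays and did not pass. The Fc receptor Fcgr1 was at 3.99 and 3.99 in MPP and 8.55 and 6.92 in CDP (adjusted p = 0.112), the matrix protein Tgfbi at 10.47 and 9.38 and 12.99 and 11.74 (adjusted p = 0.264) and the coagulation factor subunit F13a1 at 11.71 and 11.14 and 10.50 and 7.59 (adjusted p = 0.379). CDP_1 was the higher array in each of them, as it was for Lyz2 and the late granule genes. Summed linear intensity of the 23 genes was 13682 and 12968 in MPP, 37796 in CDP_1 and 24694 in CDP_2. The part of monocytic cells in the differences between CDP and MPP was not tested. Cd68 lost the call without MPP_1 or MPP_2 (adjusted p up to 0.127) and Ms4a6c whichever array was left out (0.162).

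Of the machinery for antigen capture and processing, 4 lysosomal proteases were higher in CDP and no MHC gene passed. Over all genes tested 7.51% passed. Among 14 tested proteases and inhibitors, 4 were higher, 1 was lower and 9 did not pass (median 0.67). Legumain (Lgmn), an asparagine-specific protease, rose from 4.00 and 4.00 to 10.07 and 8.95 (at least 22.8-fold higher, adjusted p = 0.000295). Cathepsin H (Ctsh) rose from 7.57 and 7.14 to 11.31 and 10.28 (10.8-fold, adjusted p = 0.00151), cathepsin S (Ctss), which trims the invariant chain of MHC class II, from 10.85 and 10.53 to 13.53 and 12.51 (5.03-fold, adjusted p = 0.00696) and cathepsin E (Ctse) by 1.75 (adjusted p = 0.0194). The inhibitor cystatin B (Cstb) fell by 1.15 (adjusted p = 0.0239). Cathepsins B (0.64), D (-0.34) and L (0.93) did not pass. Of 12 tested MHC class II genes and of 14 of class I, 0 passed limma's adjusted threshold, and 2 and 1 had an unadjusted p under 0.05, with medians of 0.07 and 0.24. H2-Aa differed by 0.05 (SE 0.47), Cd74, the invariant chain, by 0.61 (SE 0.72) and the class II transactivator Ciita by 0.09. Without CDP_1 their signs turned, to -0.78 for H2-Aa, -0.70 for Cd74 and -0.12 for Ciita, with none past the threshold, and without CDP_2 Cd74 differed by 1.93 (adjusted p = 0.00476). Among 14 tested costimulation and maturation genes, 0 were higher (3 at an unadjusted p under 0.05) and 1, the cytokine Il15, was lower, near the limit of detection (4.91 and 5.09 to 2.86 and 2.83, adjusted p = 0.00440; difference -0.04 and no call with values under 5 raised to 5). Cd86 was at 6.29 and 5.44 in MPP and at 9.41 and 7.48 in CDP and did not pass (adjusted p = 0.104). Ctss lost the call without MPP_2 (adjusted p up to 0.0649), Ctse without MPP_1, MPP_2 or CDP_1 (0.120) and Cstb whichever array was left out (0.155).

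Of the genes for innate sensing, a few of the Toll-like receptors and cofactors were higher in CDP. Of 18 tested Toll-like receptors and cofactors, 4 were higher and 1 lower (median 0.74, or 0.41 with values under 5 raised to 5). Ly86 (MD-1) rose from 5.97 and 5.76 to 11.90 and 11.08 (49.5-fold higher, SE 0.29, adjusted p = 0.000109), and Cd180 (RP105), the receptor it binds, from 3.47 and 3.30 to 5.11 and 5.39 (at least 1.19-fold, adjusted p = 0.00615; 0.678 with values under 5 raised to 5). Tlr13, a sensor of bacterial ribosomal RNA, rose from 3.64 and 3.68 to 7.98 and 7.05 (at least 5.73-fold, adjusted p = 0.0208) and Tlr2, the receptor for bacterial lipoproteins, from 8.20 and 8.01 to 10.19 and 9.74 (3.62-fold, adjusted p = 0.00710). Irak3, an inhibitor of Toll-like receptor signalling, fell by 1.97 (adjusted p = 0.00668). Of 12 tested cytosolic sensors 1 was higher and 1 lower (median -0.08). Sting1, the adaptor for cytosolic DNA sensing, rose from 7.47 and 8.19 to 9.95 and 9.80 (4.11-fold, adjusted p = 0.00623; 0.0614 in the fit of the 4 arrays), while Naip2, a sensor for bacterial secretion systems with close copies in the mouse, fell by 1.38 (adjusted p = 0.0380). The catalytic subunit of the NADPH oxidase, Cybb, rose by 1.34 (adjusted p = 0.0357), and the other 4 tested subunits lay between 0.05 and 0.54 and did not pass. In the list of C-type lectins and Siglecs 1 of 18 tested genes passed, Cd22, while Siglecf, kept in the eosinophil list, was lower. In the Fc receptor list 0 of 5 tested genes passed (2 at an unadjusted p under 0.05 in limma). The IgE receptor chains Fcer1a and Ms4a2, kept in the mast cell list, were lower, as given above. Fcgr3, a low-affinity IgG receptor, was at 10.81 and 10.72 in MPP and 8.85 and 6.70 in CDP (adjusted p = 0.284). Cd180 lost the call without MPP_2 (adjusted p up to 0.0570), Tlr2 and Irak3 without MPP_1 or MPP_2 (0.0640 and 0.0642), Cybb without MPP_1, MPP_2 or CDP_1 (0.198), Naip2 without MPP_1, MPP_2 or CDP_2 (0.186) and Tlr13 whichever array was left out (0.135).

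A part of the adhesion and homing genes changed. Of 21 tested integrins and adhesion genes, 4 were higher and 1 lower. This is 23.8% of them, and 15.4% of the tested chemokine receptors passed, against 7.51% of all genes tested. Itgb7, which pairs with α4 or αE integrins for homing to the gut, rose from 4.72 and 5.33 to 8.34 and 7.17 (6.65-fold higher, adjusted p = 0.0137), and Icam1, the ligand of LFA-1, from 7.15 and 7.06 to 8.37 and 8.48 (2.49-fold, adjusted p = 0.00409). The collagen receptor chain Itga1 rose by 1.99 (adjusted p = 0.0493) and the laminin receptor chain Itga6 fell by 1.26 (adjusted p = 0.0388). Of 13 tested chemokine receptors and related receptors, Cx3cr1 was higher and Ltb4r1, the leukotriene B4 receptor, was lower, from 6.93 and 6.12 to 4.34 and 2.97 (at least 2.88-fold, adjusted p = 0.0178). Lta4h, the enzyme that makes leukotriene B4, was lower as well, by 1.20 (adjusted p = 0.0294). Ccr2 (0.68), Cxcr4 (1.19) and Ccr7 (2.28, adjusted p = 0.139) did not pass, nor did any of 11 tested chemokines and cytokines. Itgb7 lost the call without MPP_1, MPP_2 or CDP_1 (adjusted p up to 0.113), Ltb4r1 without MPP_1, MPP_2 or CDP_2 (0.135) and Itga1, Itga6 and Lta4h whichever array was left out (0.258, 0.195 and 0.178).

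Within the TGF-β and BMP pathway, 4 of 22 tested genes were higher and 2 lower, and 2 of the former are Id2 and Id3. The type I receptor Acvr1 (ALK2) rose from 5.90 and 5.38 to 7.50 and 6.96 (3.01-fold higher, adjusted p = 0.0113) and Skil, a repressor of SMAD-dependent transcription, from 9.16 and 8.51 to 10.65 and 10.29 (3.11-fold, adjusted p = 0.0167). The co-receptor Eng and the latency protein Ltbp3 (fall by 1.72, adjusted p = 0.00782) were lower. The receptors Tgfbr1 (0.54) and Tgfbr2 (0.91) did not pass. In the NF-κB pathway, the IκB family member Bcl3 was higher by 1.63 (adjusted p = 0.00300) and the TNF receptor Tnfrsf1b lower by 1.40 (adjusted p = 0.0280), out of 15 tested. Ltbp3 lost the call without MPP_1 (adjusted p up to 0.0595), Acvr1 and Skil without MPP_2 or CDP_1 (0.0723 and 0.0992), Tnfrsf1b without MPP_1, CDP_1 or CDP_2 (0.145) and Eng without MPP_1, MPP_2 or CDP_1 (0.0712).

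No gene of DNA replication or mitosis passed, while 7.51% of all genes tested did. For lists of this size, 0 calls are a description and no result about these genes. Of 25 tested DNA replication genes and 23 tested mitosis genes, 0 passed limma's adjusted threshold and 1 and 0 an unadjusted one of 0.05, with medians of 0.12 and 0.45, and 22 of the 23 mitosis genes had a difference above 0. The arrays of the groups did not overlap for 19 of the 23 mitosis genes and for 6 of the 25 replication genes, against 48.1% of all genes tested. Summed linear intensity of the mitosis genes was 39278 and 40604 in MPP and 52534 and 50994 in CDP. Mki67 was at 12.41 and 12.59 in MPP and 12.95 and 13.07 in CDP (0.51, adjusted p = 0.290), and the helicase subunit Mcm4 at 12.24 and 12.17 and 12.77 and 13.17 (adjusted p = 0.0886). Of 16 tested cyclins, kinases and inhibitors 2 were higher. The CDK inhibitor p27 (Cdkn1b) rose from 9.38 and 8.92 to 10.42 and 10.46 (2.45-fold higher, adjusted p = 0.0137) and the cell cycle factor E2f2 from 7.94 and 7.75 to 9.02 and 9.53 (2.71-fold, adjusted p = 0.00929). Of 10 tested BCL2 family members 3 were higher, and they have opposite roles. Bcl2, which protects cells from apoptosis, rose from 9.91 and 10.19 to 11.15 and 11.50 (2.42-fold, adjusted p = 0.0109). The death-promoting members Bcl2l11 (BIM) and Bmf rose from 9.02 and 9.17 to 10.86 and 11.07 and from 5.92 and 5.49 to 7.91 and 7.33 (3.65-fold and 3.77-fold, adjusted p = 0.0163 and 0.00659). Bmf lost the call without MPP_2 (adjusted p up to 0.0570), Bcl2 without MPP_1 or CDP_2 (0.0878), E2f2 without MPP_1 or MPP_2 (0.0732), Cdkn1b without MPP_2, CDP_1 or CDP_2 (0.0806) and Bcl2l11 whichever array was left out (0.122).

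In the metabolic lists few genes passed. They were 14.3% of the tested genes of haem synthesis, 6.67% of glycolysis and 4.76% of the MYC and ribosome biogenesis list. Over all genes tested 7.51% passed, so in lists of this size such counts, and those of 0, are a description. In haem synthesis, Alas1, the enzyme of the first step, fell from 10.83 and 10.90 to 7.73 and 7.21 (10.5-fold lower, adjusted p = 0.000365), and the other 6 tested enzymes lay between -0.48 and 0.12 and did not pass. Haem is the cofactor of myeloperoxidase. In glycolysis, hexokinase 3 (Hk3), the hexokinase of myeloid cells, fell from 10.85 and 10.86 to 8.01 and 7.24 (9.39-fold, adjusted p = 0.00301), and none of the other 14 tested genes passed limma's test, with Hk1 next (-1.76, adjusted p = 0.0575). Myc fell 6.17-fold, and none of the other 20 tested genes of MYC targets and ribosome biogenesis passed limma's test. With Myc included, 15 genes of the list had a difference below 0 and 6 above 0 (median -0.21). At an unadjusted p under 0.05 in limma, 3 genes were lower, with Myc among them. Nucleolin (Ncl) differed by 0.07 and nucleophosmin (Npm1) by 0.20. The ER (18 tested), amino acid response (17), sterol synthesis (18, median -0.37) and interferon-stimulated (17) lists had 0 members past limma's adjusted threshold, and 2, 1, 1 and 0 at an unadjusted p under 0.05. In the ER list calreticulin (Calr) came nearest (-1.48, adjusted p = 0.0515; 0.0132 without CDP_2). In the list of chromatin enzymes and other chromatin proteins, 3 of 16 tested genes were higher. Hdac9, a class IIa histone deacetylase, rose from 5.72 and 5.93 to 9.05 and 8.85 (8.71-fold higher, adjusted p = 0.000169). The genome organiser Satb1 rose by 1.63 (adjusted p = 0.0125) and the Polycomb subunit Cbx2 by 1.55 (adjusted p = 0.0152). In the list of nuclear receptors 1 of 8 tested genes passed, the aryl hydrocarbon receptor (Ahr), which is not itself a nuclear receptor. Ahr rose from 4.50 and 5.03 to 6.53 and 6.41 (3.26-fold, adjusted p = 0.00649, and 0.0581 in the fit of the 4 arrays). Cbx2 lost the call without MPP_1 or CDP_2 (adjusted p up to 0.111) and Satb1 without MPP_2 or CDP_1 (0.0928).

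**Figure D4:**
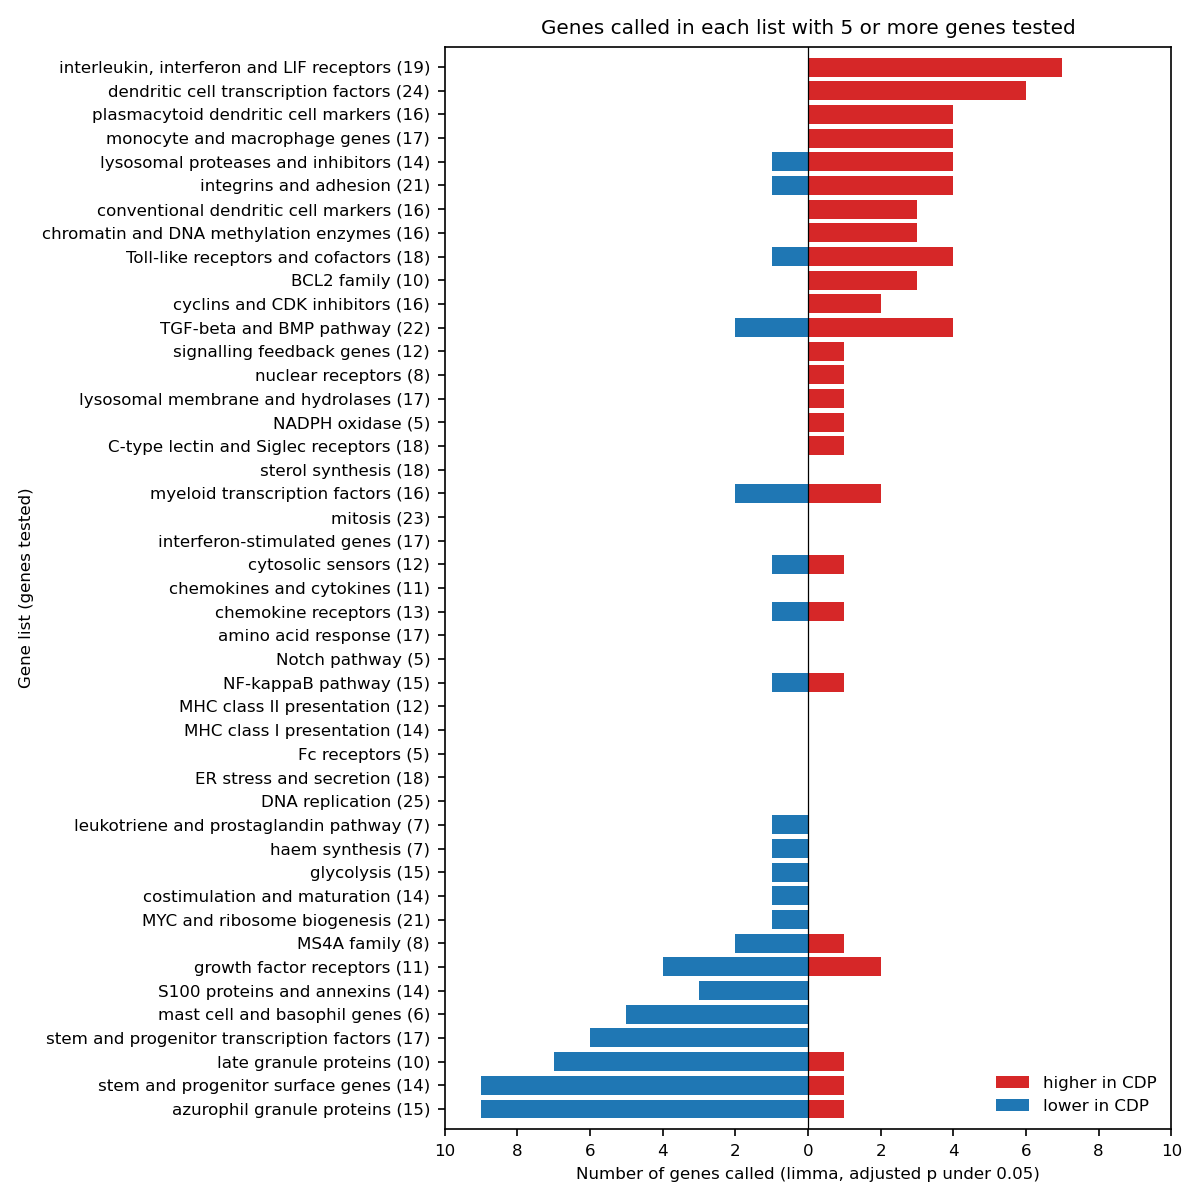
Number of genes called higher (red, to the right) and lower (blue, to the left) in CDP than in MPP for each gene list with at least 5 tested members; the number tested stands in parentheses after the list name. The azurophil granule, late granule, mast cell and both stem and progenitor lists hold 5 to 9 losses each, the interleukin receptor list 7 gains and the dendritic cell factor list 6, and the DNA replication, mitosis, ER and both MHC lists show 0 calls. Over all genes tested 3.99% were called higher and 3.52% lower.

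Among the genes with the largest changes, several belong to no list. Of the 15 largest decreases, Rab38, a GTPase of lysosome-related organelles, fell from 10.66 and 9.96 to 4.27 and 3.57 (at least 39.8-fold lower, adjusted p = 0.000109). Dio2, which converts thyroxine to its active form, fell from 8.24 and 8.37 to 2.27 and 2.27 (at least 9.88-fold, adjusted p = 1.42e-05), and the signalling adaptor Grb10 from 8.42 and 7.56 to 2.54 and 2.51 (at least 7.95-fold, adjusted p = 0.000109). Hsd11b1, which regenerates active glucocorticoid, fell from 10.47 and 9.81 to 4.27 and 3.98 (at least 35.3-fold, adjusted p = 0.0143). Thrombospondin 1 (Thbs1) fell by 5.13, with CDP arrays at 6.57 and 2.70 (adjusted p = 0.0377). Of the 15 largest increases, Olfm1, a secreted olfactomedin, rose from 3.18 and 2.82 to 9.33 and 9.36 (at least 20.3-fold higher, adjusted p = 2.49e-05). The semaphorin Sema6d rose from 2.74 and 2.25 to 7.44 and 8.17 (at least 6.99-fold, adjusted p = 0.000126). Cysltr1, the receptor for cysteinyl leukotrienes, rose from 2.82 and 2.48 to 8.26 and 7.32 (at least 6.93-fold, adjusted p = 0.000283). St6gal1, the sialyltransferase that makes the ligand of CD22, rose from 5.44 and 4.86 to 10.37 and 10.10 (34.0-fold, adjusted p = 0.000175). Gpr183, an oxysterol receptor that positions dendritic cells, rose from 5.73 and 5.57 to 10.69 and 9.76 (23.8-fold, adjusted p = 0.000273). Cttnbp2nl, creatine kinase B (Ckb), the membrane protein Emp1, the lysophosphatidylserine receptor Gpr174 and the HMG-box gene Tox3 were higher by 4.90, 4.60, 4.37, 4.19 and 4.76 (adjusted p from 9.38e-05 to 0.0358). Thbs1 lost the call without MPP_1 or MPP_2 (adjusted p up to 0.221) and Hsd11b1 and Tox3 whichever array was left out (0.117 and 0.190).

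The MS4A family, which encodes membrane proteins with 4 spans, held genes that fell and a gene that rose, in 1 cluster on chromosome 19. In the order of the RefSeq table, Ms4a2 and Ms4a3 stand next to each other at the end of the cluster, and both fell. The genes before them, from Ms4a4c to Ms4a6d, include Ms4a6c, which rose. Ms4a4c was at 7.40 and 6.93 in MPP and 10.98 and 10.02 in CDP (adjusted p = 0.0614), Ms4a4b differed by 2.76, Ms4a6b by 1.49 and Ms4a6d by 2.37, and none of these 4 passed. In the fit of the 4 arrays Ms4a4c and Ms4a4b did (adjusted p = 0.0459 and 0.0237), and with the in vivo arrays added Ms4a4c and Ms4a6b (adjusted p = 0.0298 and 0.0323).

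The losses and gains were then read in the other groups of the series. Of the 313 genes lower in CDP, 67 were above 5 on both MPP arrays and below 5 on both arrays of CDP, cDC and pDC. Of these 67, 46 were also below 5 on both in vivo CDP arrays, and 18 were above 5 on both of them. The latter include Elane (7.42 and 7.25 in vivo), Camp (9.77 and 6.98), Ltf (9.43 and 6.69), Rab38 (6.59 and 6.88) and Rab44, a Rab GTPase of granulocytes and mast cells, which fell from 9.61 and 9.86 in MPP to 4.81 and 4.88 in culture and stood at 10.82 and 10.42 in vivo. Mpo was at 13.93 and 13.99 and S100a8 at 12.89 and 10.85 in in vivo CDP, and Kit at 7.58 and 7.84. Cpa3 (2.27 and 2.27) and Gata2 (2.28 and 2.25) were at the floor there, as in cultured CDP. The in vivo arrays differ from the cultured ones in RNA amount and both kits, so source and handling cannot be told apart.

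Of the 355 genes higher in CDP, 92 were below 5 on both MPP arrays and above 5 on both CDP arrays. Of these, 50 were above 5 on every array of cDC and pDC, 9 in cDC with both pDC arrays below 5, and 4 in pDC with both cDC arrays below 5. Olfm1 is one of the 9 (10.998 and 11.27 in cDC, 4.09 and 3.88 in pDC), and Id3 (3.57 and 4.13 and 8.38 and 8.91) and Gpr174 (4.09 and 4.18 and 9.55 and 9.72) are among the 4. A further 14 were below 5 in both dendritic cell groups, and 13 of them below 5 in in vivo CDP as well. By this selection, these 13 were above 5 in cultured CDP and in no other group of these 10 arrays. They entered the test only through the CDP arrays, so their adjusted p-values are given as a description and support nothing further. They include the endothelin receptor Ednrb (2.77 and 2.77 in MPP, 7.04 and 6.60 in CDP, adjusted p = 0.000116), the collagen cross-linking enzyme Lox (2.28 and 2.28 and 6.43 and 6.18, adjusted p = 0.000109), the RNA-binding protein Igf2bp3 (2.76 and 4.13 and 6.37 and 8.44, adjusted p = 0.0158) and the HMG-box factor Tox (2.30 and 2.30 and 5.25 and 6.67, adjusted p = 0.00260). With values under 5 raised to 5, Igf2bp3 and Tox did not pass (adjusted p = 0.0562 and 0.255), nor did Tox in the fit of the 4 arrays (0.0600). Igf2bp3 lost the call without MPP_1 (adjusted p up to 0.117). Without the filter on low values, limma's adjusted p was 0.155 for Igf2bp3 and 0.0546 for Tox, and 0.00503 and 0.00474 for Ednrb and Lox. The genes named here were chosen after their values were seen.

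**Figure D5:**
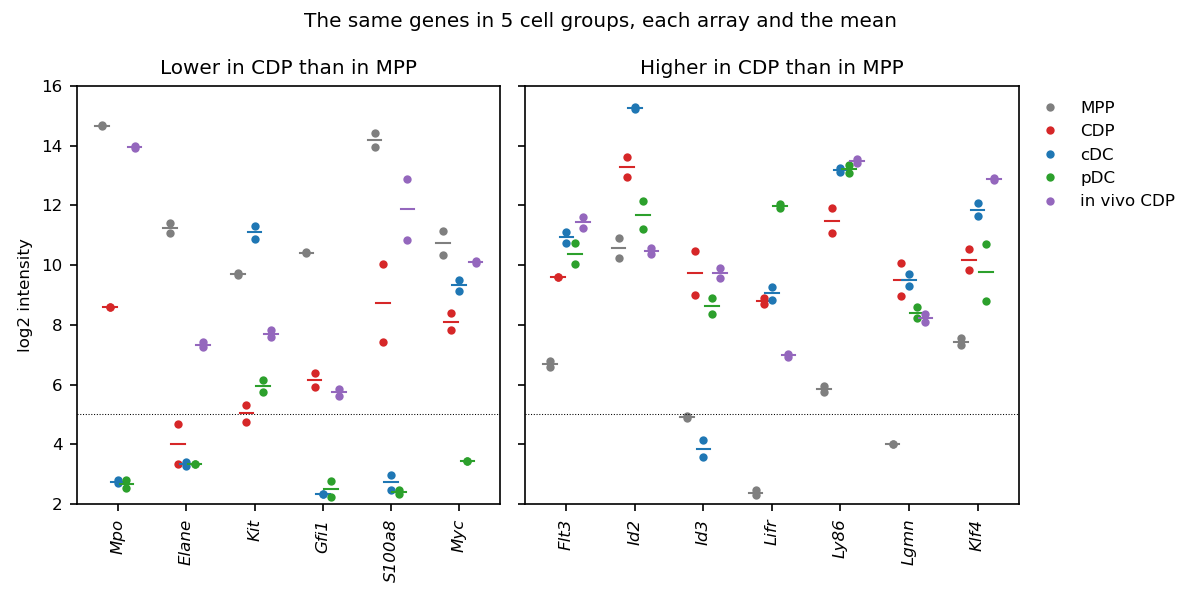
Log2 intensity (y axis) of 6 genes lower and 7 genes higher in CDP than in MPP, in MPP (grey), CDP (red), cDC (blue), pDC (green) and in vivo CDP (purple); points are single arrays, short bars the means, and the level of 5 is dotted. Mpo, Elane and S100a8 are near the floor in both dendritic cell groups. Mpo and S100a8 are high in in vivo CDP, where Elane lies between its levels in MPP and in cultured CDP. Kit is high again in cDC, and Id3 lies below 5 in cDC while it stays high in pDC.

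The 0 h arrays gave a second pair of untreated cultured CDP. They lack the lowest value shared by the arrays described above and so seem to have been normalized apart from them. Levels were therefore not set side by side, and the rank of a gene within its array, as a percentile over all 18193 genes, was used. Mpo ranked at 99.8 on both MPP arrays, at 78.5 on both CDP arrays, at 50.5 and 53.5 at 0 h and at 99.5 on both in vivo arrays. Elane ranked at 95.5 and 94.2 in MPP, 53.5 and 49.2 in CDP and 39.5 and 39.4 at 0 h. On the in vivo arrays Elane ranked at 67.1 and 65.3. Prtn3 ranked above 99 on every one of these 8 arrays (lowest 99.1, CDP_2), and Ctsg at 92.8 and 96.3 at 0 h. Kit ranked at 86.9 and 86.6 in MPP, 53.8 and 56.6 in CDP and 59.1 and 56.2 at 0 h. Flt3 ranked at 62.9 and 64.0 in MPP, 85.8 and 86.0 in CDP and 94.4 and 93.9 at 0 h. Id3 (54.4 and 55.0 in MPP, 88.3 and 88.2 at 0 h), Ly86 (59.4 and 58.5, 93.2 and 94.3) and Lgmn (51.0 and 51.4, 85.0 and 84.3) also ranked higher at 0 h than in MPP. For other genes the 0 h ranks lay between those of MPP and CDP. Cebpa ranked at 82.7 and 79.7 in MPP, 59.9 and 57.9 in CDP and 70.3 and 69.6 at 0 h. Klf4 ranked at 69.7 and 67.9, 91.7 and 87.8, and 81.1 and 75.9 on these arrays, and Id2 at 93.6 and 90.2, 99.4 and 98.6, and 97.0 and 94.8. The ranks were not tested, and they order probe sets, not transcripts, so each is read only between arrays for 1 gene.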

How the data were processed

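Total RNA was measured on Affymetrix mouse expression arrays. The authors deposited 1 log2 intensity per probe set and array, already background-adjusted and normalized; the submitters' processing notes name GCRMA, without a version. Of 45101 probe sets, 64 were array controls, 34945 had 1 gene symbol in GEO's platform annotation, 932 had several and 9160 none. Each of 18193 genes kept 1 probe set, that of highest mean across all 20 arrays, a choice for 9010 genes.

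The 8 one-cycle arrays (MPP, CDP, cDC, pDC) were fitted together with limma 3.58.1 in R 4.3.3 (lmFit, eBayes), without a block, on the deposited values. Genes above 5 on at least 2 of them were tested, and p-values were adjusted by Benjamini-Hochberg over 8900 genes. SE is limma's, and values are on the log2 scale. If neither array of the lower group reached 5, the fold was computed from the mean of the higher group against 5 and is written "at least"; the p-value beside it tests the full difference. A fit without 1 array assumes that the lone array of the group varies like the others.

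Genes named are the 15 largest increases and decreases among called genes without overlap, at most 4 called genes of each list in each direction, and regulators set in advance of this fit. A further 64 genes, 19 of them called (among them Prtn3, Cd34, Srgn, Erg, Ltf, Il4ra, Il10ra, Rab44, Lox and Tox), were named outside this rule after their values were seen. Members and the 51 gene lists (875 genes, 609 tested) were chosen with earlier results of these data known. On simulated data of 8900 genes for this comparison, 82% of 100 planted log2 changes of 2 and 94% of 100 of 4 were recovered, with 5 false calls. The simulated noise was independent between arrays, without the floor of the scale or the correlated deviations of same-numbered arrays. These rates therefore check the procedure and need not hold for the measured arrays. Precision is limited by 2 arrays per group. Promoter windows are from RefSeq.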

Additional observations from a re-analysis of the deposited data

How the results depend on the processing

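The count of 668 calls (355 higher, 313 lower) became 350 (159 higher, 191 lower) without the filter on low values, where 18193 genes were tested, and 307 (166 higher, 141 lower) when only the 4 arrays of MPP and CDP were fitted, with fewer arrays behind the estimate of spread. Leaving out 1 array gave 279 to 491 calls, 157 to 288 of them higher and 122 to 243 lower. Under the other alternatives, namely other filters, raising low values to 5, adding the in vivo arrays, median centring, quantile normalization, a variance trend, a robust prior and other choices of probe set, it lay between 507 and 781. Among the 187 tested genes named, of which 130 had passed, 83 lost the call under at least 1 alternative, 78 of them without the filter, 54 with only the 4 arrays, 10 with values under 5 raised to 5 and 10 with the mean over all probe sets of a gene. Without the filter these included Car2, Cpa3, Cx3cr1 and Hk3 (adjusted p from 0.0527 to 0.0561), which lost it under no other alternative. Genes that had not passed gained a call as well, by adjusted p: Calr under 7 (0.0132 to 0.0496), Mcpt8 under 6 (0.00125 to 0.0497), Cxcr4 under 5 (0.0281 to 0.0489), Hk1 under 5 (0.0241 to 0.0475), Lmo2 under 4 (0.0327 to 0.0437), Ms4a4c under 4 (0.0156 to 0.0487), Dusp6 under 3 (0.00824 to 0.0421), Ms4a6b under 2 (0.0323 to 0.0442) and Cebpd under 2 (0.0341 to 0.0454) of the alternatives; Ms4a4b (0.0237) with only the 4 arrays, Ccr2 (0.0452), Serpinb1a (0.0121) with the mean over probe sets, Ccr7 (0.0366), Cd86 (0.00779), Relb (0.0429), Tgfbr2 (0.0442) with the replicate block, Chil3 (0.00384), Csf2ra (0.0440) without CDP_1 and Cd74 (0.00476), Siglech (0.0437), Spib (0.0198) without CDP_2. Over the fits without 1 array, 12 genes turned in sign, none of which had passed, and the cause was not tested; their differences ran from -0.20 to 0.44 for Zeb2 (turned without MPP_1), -1.02 to 1.62 for Lyz2 (turned without MPP_2 or CDP_1), -0.10 to 0.25 for Spi1 (turned without MPP_2 or CDP_1), -0.026 to 1.94 for Spib (turned without CDP_1), -0.48 to 0.91 for Cd9 (turned without MPP_2 or CDP_1), -0.00076 to 0.32 for Cd93 (turned without MPP_2), -0.70 to 1.93 for Cd74 (turned without CDP_1), -0.78 to 0.89 for H2-Aa (turned without CDP_1), -0.12 to 0.30 for Ciita (turned without MPP_1 or CDP_1), -0.15 to 0.23 for Itgae (turned without MPP_2 or CDP_1), -0.019 to 0.17 for Ncl (turned without MPP_1 or CDP_2) and -0.67 to 0.21 for Tfrc (turned without MPP_2). Tfrc also turned with the mean over its probe sets (0.47). Quantile normalization and median centring turned none of the 187. Deviations of same-numbered MPP and CDP arrays correlated at 0.58 over genes, and the labels do not say that numbers pair samples; with the number as a replicate block, 746 genes were called, 401 higher and 345 lower. Of 399 further probe sets of called genes, 386 had the same sign and 0 were called the other way by limma. Of 1626 tested probe sets without a gene name, 56 (3.44%) were called. Genes near the level of 5 have the least certain folds.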
